A study of Mus musculus with 19 samples.

Results

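A set of 9 transcription factor genes of the granulocyte lineage were followed across bone marrow RNA of 5 mouse genotypes: Cebpa, Cebpb, Cebpd, Cebpe, Cebpg, Cebpz, Gfi1, Spi1 and Runx1. They were chosen by symbol, and each matched 1 row, so the 9 genes are 9 of the 34432 genes in the deposited table. All 9 passed the filter on low values, a mean normalized count of 10 or more, and stand among the 13976 genes tested. The RNA came from untreated C57/BL6 mice at 8 weeks of age, whose femurs and tibiae were flushed for marrow. DKO mice carried Cdk8 flox/flox, the Vav-iCre transgene and Cdk19null (n = 4 libraries). CDK8KO mice carried Cdk8 flox/flox and the transgene (n = 4), and CDK19KO mice carried Cdk19null alone (n = 4). The controls were VAV mice, which carried the transgene alone (n = 4), and wild-type WT mice (n = 3). Vav-iCre drives Cre recombinase in blood cells, whereas Cdk19null is carried by every cell. Whether the marrow's other cells kept Cdk8 was not measured. CDK8 and CDK19 are paralogous kinases of the Mediator complex, which carries signals from transcription factors to RNA polymerase II.

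C/EBP proteins bind DNA as dimers through a basic region followed by a leucine zipper. C/EBPα starts the granulocyte programme in progenitors, C/EBPε drives the later steps in which secondary granules are made, and C/EBPβ serves granulocyte production under infection or stress. C/EBPδ is induced by inflammatory signals, C/EBPγ has no activation domain and acts as a dimer partner, and CEBPZ, which binds CCAAT boxes, has no leucine zipper of this family. Gfi1 encodes a zinc finger repressor needed for neutrophil formation. Spi1 encodes PU.1, an ETS factor of myeloid and B cells, and Runx1 encodes the DNA-binding partner of core binding factor, which acts early in blood formation.

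The shared basic region places these C/EBP genes in 1 family, and its coding sequence in 4 of them is shown because it bears on whether their reads can be told apart. Each line gives the 60 coding bases from GENCODE vM21 on GRCm38, 5′ to 3′ on the gene's strand, with the 35 bases that are identical in these 4 genes in capitals.
Cebpa, chr7:35120271-35120330, plus strand: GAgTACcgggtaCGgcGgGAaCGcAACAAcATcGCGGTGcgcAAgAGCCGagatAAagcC
Cebpb, chr2:167689691-167689750, plus strand: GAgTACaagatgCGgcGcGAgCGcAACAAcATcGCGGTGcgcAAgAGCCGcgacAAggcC
Cebpe, chr14:54710710-54710769, minus strand: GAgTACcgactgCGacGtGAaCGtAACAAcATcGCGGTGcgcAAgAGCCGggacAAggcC
Cebpg, chr7:35050588-35050647, minus strand: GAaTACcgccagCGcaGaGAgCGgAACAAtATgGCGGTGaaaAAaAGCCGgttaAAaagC
In this window Cebpb and Cebpe each matched Cebpa at 85% of bases, and Cebpg at 63.3%. The longest run of bases shared by any pair of the 9 genes' transcripts was 29, between Cebpa and Cebpb, which is shorter than the 150-base reads.

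Promoter sequence was examined because Cebpa, Cebpe and Gfi1 varied together over the libraries, as described further on. The 250 bases before the start were searched on both strands for TTGCNNAA and TTNNGNAAT (C/EBP), GAGGAA (PU.1 type ETS), TGTGGT and TGCGGT (RUNX) and AAATCA (GFI1 core). Cebpe, Cebpd, Spi1 and Cebpz had no promoter entry and were not searched, so the search does not bear on Cebpe. RefSeq entries on GRCm38.p6 covered 7 promoters of 5 of the genes (Cebpa, Cebpb, Cebpg, 2 of Gfi1 and 2 of Runx1). TTGCNNAA was found in 1 of them, 143 bases before the more upstream RefSeq start of Gfi1, but inside the gene as annotated in GENCODE vM21. Of 32851 RefSeq promoters 9.56% hold it. GAGGAA was found in 1, the promoter inside Runx1, 46 bases before its start, and 23.3% of promoters hold it. The Gfi1 stretch that lies outside the gene's annotated exons, and the Cebpa promoter, which held none of the 6 motifs, are given 5′ to 3′ on the gene's strand, with the match in capitals.
Gfi1, chr5:107725806-107725954, minus strand: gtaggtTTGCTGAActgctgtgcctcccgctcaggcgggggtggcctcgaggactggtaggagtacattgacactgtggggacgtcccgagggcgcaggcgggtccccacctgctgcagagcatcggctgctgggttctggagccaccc
Cebpa, chr7:35119043-35119292, plus strand: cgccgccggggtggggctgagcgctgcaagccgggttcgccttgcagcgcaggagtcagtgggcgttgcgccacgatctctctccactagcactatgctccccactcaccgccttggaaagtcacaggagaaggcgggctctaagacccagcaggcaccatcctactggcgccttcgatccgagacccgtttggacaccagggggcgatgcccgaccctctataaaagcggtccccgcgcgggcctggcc
A match describes letters only, and binding was not measured here.

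On GRCm38 the genes lie at chr7:35119293-35121928 (Cebpa, ENSMUSG00000034957), chr2:167688915-167690418 (Cebpb, ENSMUSG00000056501) and chr16:15887286-15891031 (Cebpd, ENSMUSG00000071637), each a single exon on the plus strand. Cebpe (ENSMUSG00000052435) lies at chr14:54710360-54712174 and has 2 exonic blocks, and Cebpg (ENSMUSG00000056216) lies at chr7:35046422-35056573 and has 3, both on the minus strand. Cebpg and Cebpa are neighbours, with 62.72 kb between the end of Cebpg and the start of Cebpa. Cebpz (ENSMUSG00000024081, chr17:78919006-78937066, minus strand) has 16 exonic blocks, and Gfi1 (ENSMUSG00000029275, chr5:107716657-107726036, minus strand) has 8. Spi1 (ENSMUSG00000002111, chr2:91082390-91115756, plus strand) has 7 and Runx1 (ENSMUSG00000022952, chr16:92601466-92826149, minus strand) has 9. Exons of an expressed gene on the opposite strand overlap Cebpb (Tmem189, 312 bases), Cebpd (Spidr, 562 bases) and Cebpz (Cebpzos, 171 bases). Whether the counting used strand is not given in the sources used here, so reads from these overlaps may be shared and the 3 levels are uncertain to that extent.

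The libraries held 14881701 to 33010241 reads assigned to genes, and the 9 genes drew between 327 and 8237 reads each per library. Whether each library is a different mouse is not stated in the labels, and the p-values therefore speak only for the spread among libraries, some of which may be technical. Cdk19 averaged 1173 ± 43.1 normalized counts in DKO and 1091 ± 62.5 in CDK19KO marrow (SD, n = 4 each), and no other library was below 2710. Cdk8 averaged 798 ± 62.0 in DKO, 1013 ± 249 in the libraries labelled CDK8KO and 994 ± 230.1 in VAV (SD, n = 4 each). The Cdk8 level of the CDK8KO group was thus not below that of VAV. Whether the floxed part of Cdk8 was deleted cannot be checked from gene counts. CDK8KO 1 and VAV 3 stood apart with 3.20% and 2.96% of reads on 11 erythroid marker genes, against 0.102% to 1.33% in the other libraries. CDK19KO 4 and DKO 4 held 0.0615% and 0.0160% of reads on skeletal muscle genes.

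Every one of the 9 genes was expressed in all 19 libraries. Per length, as reads per kilobase of exon per M assigned reads (RPKM), Spi1 had the highest mean level, 75.7, followed by Cebpb at 64.1 and Cebpe at 54.4. Cebpd averaged 23.5, Runx1 18.5, Cebpg 13.5, Cebpz 12.8, Cebpa 10.4 and Gfi1 8.78 RPKM. Of the neighbours in this order, only Cebpe and Cebpd had ranges that did not overlap, with a lowest Cebpe level of 34.9 and a highest Cebpd level of 31.9 RPKM. Spi1 exceeded Cebpb in 14 of 19 libraries and Cebpb exceeded Cebpe in 12, so the order of the top 3 was not fixed from library to library. The late factor Cebpe thus had more RNA per length than the early factor Cebpa in these whole-marrow samples.

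**Figure D1:**
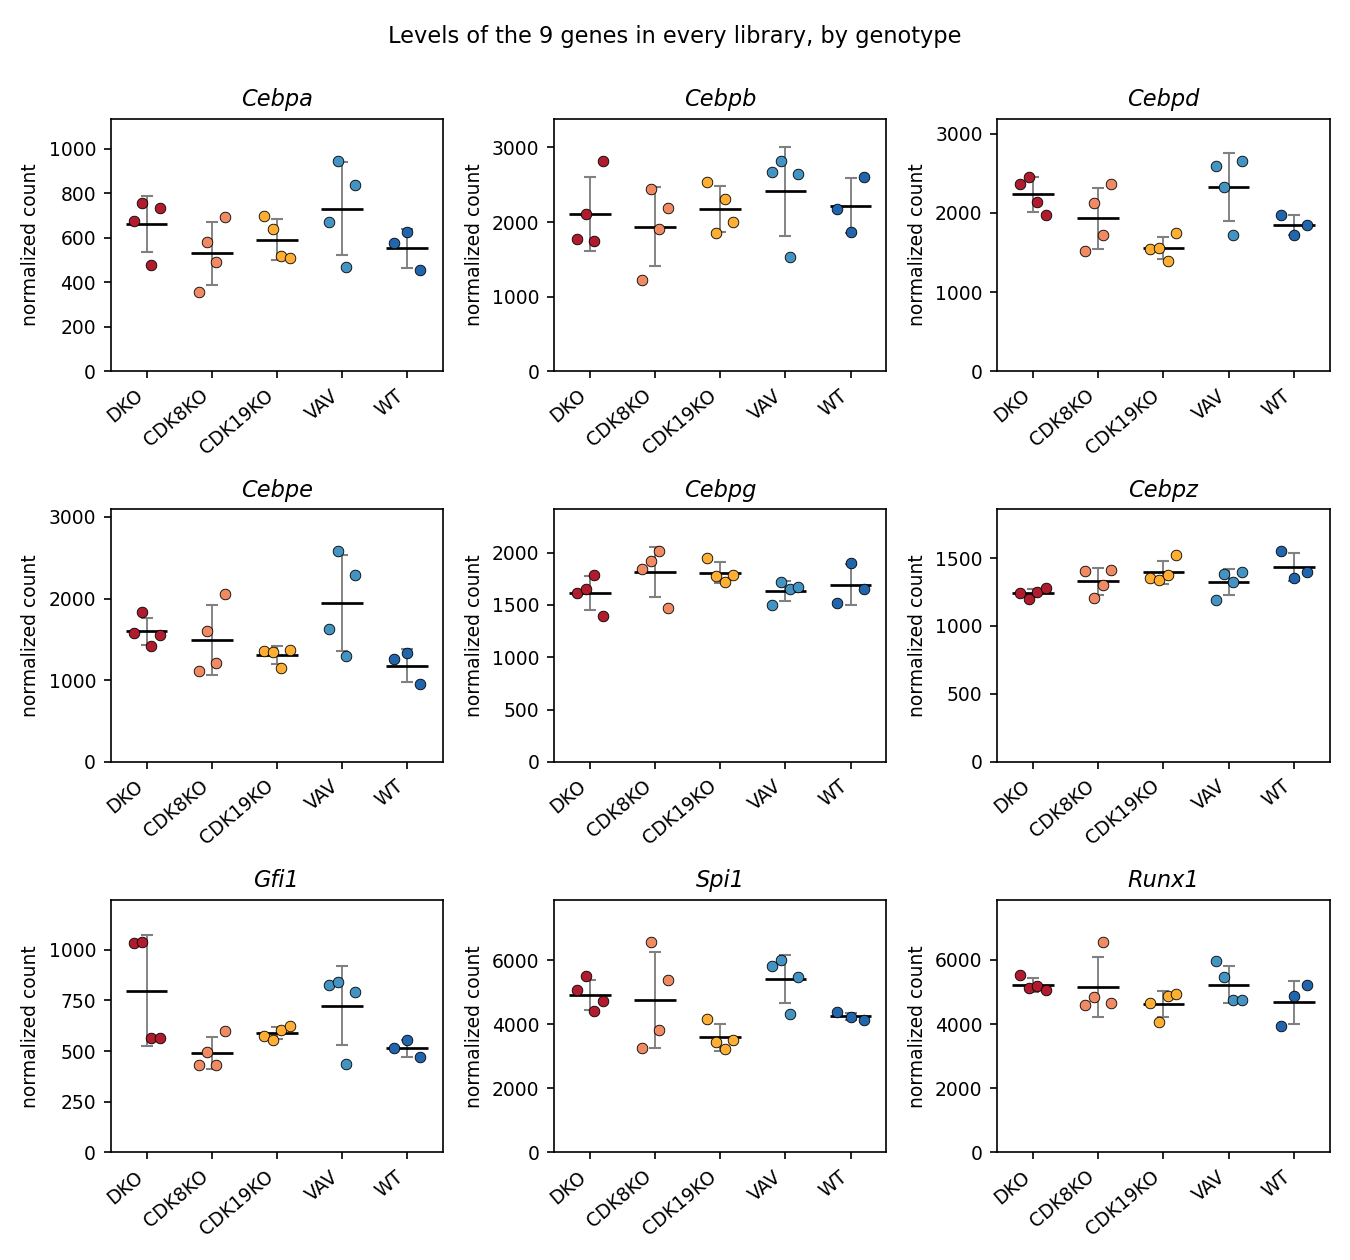
Normalized count of each of the 9 genes (vertical axes start at 0) in every library, by genotype. Points are libraries, horizontal lines are group means and bars are ± SD (n = 4, and n = 3 for WT). Gfi1 in DKO falls into a pair at 1031 and 1037 and a pair at 562, and CDK19KO libraries lie low for Cebpd and Spi1.

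The first question was whether loss of both kinases changed the granulocyte factors, tested as DKO against VAV. None of the 9 genes passed, in either direction. Cebpe, the factor of late granulocyte steps, had 1577, 1831, 1425 and 1557 normalized counts in DKO marrow, against 1632, 2579, 1301 and 2291 in VAV marrow. The DKO libraries lay within the range of the VAV libraries, whose highest library was VAV 2 and lowest VAV 3. On the log2(normalized count + 1) scale used for every fold change here, Cebpe differed by -0.24 ± 0.20 (SE; 95% interval -0.67 to 0.18), with a limma adjusted p of 0.590, the smallest of the 9 genes. Cebpa, the factor that starts the programme, had 677, 755, 480.03 and 736 normalized counts in DKO, against 671, 947, 467 and 837 in VAV. The Cebpa groups overlapped almost wholly, and the difference was -0.11 ± 0.22.

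Gfi1, the repressor of the neutrophil lineage, had 1031, 1037, 562 and 562 normalized counts in DKO, against 825, 841, 435 and 792 in VAV. DKO 1 and DKO 2 were higher than every other library of the 19, while DKO 3 and DKO 4 were below 3 of the 4 VAV libraries. The group difference for Gfi1 was 0.12 ± 0.22, with a 95% interval of -0.34 to 0.59. Spi1 had 5063, 5502, 4418 and 4723 in DKO and 5814, 6007, 4333 and 5484 in VAV, a difference of -0.13 ± 0.17. Cebpb had 1777, 2104, 1743 and 2816 in DKO and 2666, 2819.96, 1529 and 2637 in VAV, a difference of -0.18 ± 0.22. Cebpd had 2363, 2449, 2137 and 1975 in DKO and 2593, 2323, 1725 and 2656 in VAV, a difference of -0.04 ± 0.15. In each of these genes VAV 3 was the lowest VAV library and the groups overlapped.

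The remaining 3 genes had narrow intervals. Runx1 ranged from 5061 to 5542 normalized counts in DKO and from 4745 to 5964 in VAV, and the difference of 0.00 ± 0.12 had a 95% interval of -0.25 to 0.26. Cebpg ranged from 1394 to 1786 in DKO and from 1496 to 1714 in VAV (-0.02 ± 0.11, interval -0.25 to 0.21). Cebpz ranged from 1199.8 to 1277 in DKO and from 1189.7 to 1401 in VAV (-0.09 ± 0.09, interval -0.27 to 0.09). These intervals bound the change of the 3 genes to less than 0.3 on the log2 scale in either direction, whereas those of Cebpa, Cebpb, Cebpe and Gfi1 reach past 0.5 on at least 1 side.

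In this comparison 0 of the 9 genes passed in limma at an adjusted p under 0.05, 0 passed in edgeR's quasi-likelihood test, and 0 passed in DESeq2. The background was 213 of 13976 genes called, or 1.52%, so a set of 9 genes with no call is near what all genes show. At an unadjusted p under 0.05 the count was also 0 of 9, against 2200 genes, 15.7% of those tested. Exact two-sided permutation tests of the single genes gave p between 0.2 (Cebpz) and 0.943 (Runx1), where the smallest p that 4 against 4 libraries allow is 0.0286. No gene of the 9 had groups that did not overlap, which 8.49% of all genes had. The 9 differences had a median of -0.09 and a median size of 0.114, against -0.01 and 0.206 over all genes tested. For 4 genes the sign depended on the control: set against WT in place of VAV, the DKO difference was 0.45 for Cebpe, 0.25 for Cebpa, 0.27 for Cebpd and 0.21 for Spi1. That of Gfi1 was 0.57 against WT, and none of these passed the threshold. Against VAV, the Gfi1 value turned to -0.02 without DKO 1 or without DKO 2, and to -0.10 without VAV 3. Cebpa, Cebpd, Cebpg and Runx1 also changed sign when certain single libraries were left out.

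Deletion aimed at Cdk8 alone was tested as CDK8KO against VAV. Most of the genes had lower values in the libraries labelled CDK8KO, but none passed. Gfi1 had 429, 495, 433 and 599.8 normalized counts in CDK8KO, against 825, 841, 435 and 792 in VAV. All CDK8KO libraries lay below the 3 higher VAV libraries, and VAV 3 lay among them. The Gfi1 difference was -0.53 ± 0.22, with a 95% interval of -0.99 to -0.06 and a limma adjusted p of 0.586. Cebpa had 355, 582, 490.3 and 692 in CDK8KO and 671, 947, 467 and 837 in VAV, a difference of -0.46 ± 0.22. Cebpe had 1108, 1605, 1214 and 2055 in CDK8KO and 1632, 2579, 1301 and 2291 in VAV, a difference of -0.37 ± 0.20.

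Cebpb had 1221, 2445, 1906 and 2181 in CDK8KO and 2666, 2819.96, 1529 and 2637 in VAV, with CDK8KO 1 the lowest of all 19 libraries (difference -0.32 ± 0.22). Cebpd differed by -0.27 ± 0.15 and Spi1 by -0.23 ± 0.17, while Cebpg (0.14 ± 0.11), Cebpz (0.00 ± 0.09) and Runx1 (-0.03 ± 0.12) lay near 0 or above it. The count was 0 of 9 called in limma, 0 in edgeR and 0 in DESeq2. The background was 0% of all genes called in limma, 0 in edgeR and 1 gene in DESeq2. At an unadjusted p under 0.05 it was 1 of 9 (Gfi1), against 1161 genes or 8.31%. None of the 9 genes had groups that did not overlap, against 1.76% of all genes.

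Erythroid RNA moved with this comparison. The 11 erythroid markers tested all had higher values in CDK8KO than in VAV, with a median of 1.13 and none called, and the markers' share of reads was 0.377% to 3.20% in CDK8KO and 0.102% to 2.96% in VAV. With the level of the erythroid markers as a covariate, the CDK8KO difference was -0.17 for Cebpa, -0.05 for Cebpb, -0.12 for Cebpe and -0.26 for Gfi1. Without CDK8KO 1 and VAV 3, the erythroid-rich pair, it was -0.48 for Cebpa, -0.32 for Cebpb, -0.42 for Cebpe and -0.70 for Gfi1, again with no call. Without CDK8KO 1 alone it was -0.28 for Cebpa and -0.11 for Cebpb. VAV 3 was the lowest VAV library for each of these genes, so leaving out VAV 3 alone moves the difference away from 0. Over all alternatives the difference ran from -0.65 to -0.09 for Cebpa and from -0.53 to -0.05 for Cebpb. It ran from -0.55 to 0.31 for Cebpe and from -0.75 to -0.08 for Gfi1. The value of 0.31 for Cebpe was that with WT in place of VAV as the control. With that control Spi1 (0.11), Cebpd (0.05) and Runx1 (0.14) also turned positive and Cebpz turned negative (-0.11), and none of them passed. Cebpa, Cebpb and Gfi1 stayed below 0 in every alternative. The erythroid covariate thus moved the values of Cebpa, Cebpb, Cebpe and Gfi1 toward 0, and removing the pair, whose members act in opposite directions, did not. In bulk marrow, fewer granulocytic cells and less RNA of a gene per cell cannot be told apart.

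Cdk19 loss alone was tested as CDK19KO against WT, and the 9 genes differed little. Gfi1 had 574, 556, 604 and 621 normalized counts in CDK19KO, against 517, 553 and 471 in WT. Every CDK19KO library lay above every WT library, the nearest pair being 556 and 553, and the difference of 0.20 ± 0.24 had an interval of -0.30 to 0.70. Cebpd had 1548, 1554, 1393 and 1739 in CDK19KO and 1969, 1714 and 1840.2 in WT (-0.24 ± 0.16). Spi1 had 4183, 3461, 3224 and 3516 in CDK19KO and 4380.1, 4231 and 4138 in WT (-0.25 ± 0.18). CDK19KO libraries were mostly the lower ones for both genes, and 1 CDK19KO library of each reached into the WT range.

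Cebpe had 1361, 1342, 1146 and 1376 in CDK19KO and 1258, 1328 and 951 in WT (0.16 ± 0.22), and Cebpa had 700.02, 639.8, 521 and 509.6 in CDK19KO and 576, 626 and 455 in WT (0.10 ± 0.24). Cebpb, Cebpg, Cebpz and Runx1 differed by between -0.04 and 0.10. In limma 0 of the 9 genes passed, all with an adjusted p of 1, and 0 passed in edgeR or DESeq2. The background was 3 genes called, or 0.0215%. At an unadjusted p under 0.05 the count was 0 of 9, against 429 genes or 3.07%. Only Gfi1 of the 9 had groups that did not overlap, against 7.61% of all genes in either direction and 3.56% with CDK19KO the higher.

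DKO marrow was next set against each single genotype, which asks what the second loss adds. These comparisons share their DKO libraries with the comparison above. Against CDK8KO, where Cdk19null is the difference, Gfi1 had 1031, 1037, 562 and 562 normalized counts in DKO and 429, 495, 433 and 599.8 in CDK8KO. The CDK8KO library with 599.8 exceeded DKO 3 and DKO 4, so the groups overlapped. The Gfi1 difference was 0.65 ± 0.22 (interval 0.19 to 1.12), with an adjusted p of 0.148 in limma and 0.0408 in DESeq2. Among the 9 genes, limma called 0, edgeR 0 and DESeq2 1, against a background of 1.7% of all genes in limma and 5.09% (711 genes) in DESeq2. At an unadjusted p under 0.05, 1 of 9 passed, against 2253 genes. No gene of the 9 had groups that did not overlap, against 7.43% of all genes. The other 8 genes differed by between -0.16 (Cebpg) and 0.34 (Cebpa). The erythroid markers were lower in DKO for 11 of 11 genes with a median of -1.64 and none called, and with their level as a covariate the Gfi1 difference was 0.26. Without CDK8KO 1 it was 0.59.

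Against CDK19KO, DKO marrow differed in both the floxed Cdk8 alleles and the transgene, whose effects cannot be told apart here. Cebpd, the inflammation-induced family member, had 2363, 2449, 2137 and 1975 normalized counts in DKO, against 1548, 1554, 1393 and 1739 in CDK19KO. Spi1 had 5063, 5502, 4418 and 4723 in DKO, against 4183, 3461, 3224 and 3516 in CDK19KO. For both genes the lowest DKO library lay above the highest CDK19KO library. The difference was 0.52 ± 0.15 for Cebpd (interval 0.21 to 0.82, limma adjusted p = 0.0759) and 0.46 ± 0.17 for Spi1 (interval 0.10 to 0.81, limma adjusted p = 0.190). DESeq2 called Cebpd at an adjusted p of 0.0234, and limma called both genes when the fit held only DKO and CDK19KO libraries, at adjusted p of 0.0156 for Cebpd and 0.0274 for Spi1. DESeq2 called 601 genes or 4.3% in this comparison, and that limma fit called 968 or 6.93%.

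Cebpe (1425 to 1831 in DKO, 1146 to 1376 in CDK19KO), Runx1 (5061 to 5542 in DKO, 4059 to 4944 in CDK19KO) and Cebpz (1199.8 to 1277 in DKO, 1336 to 1521 in CDK19KO) also had groups that did not overlap. Cebpe and Runx1 were the higher in DKO and Cebpz the lower, with differences of 0.29 ± 0.20, 0.18 ± 0.12 and -0.17 ± 0.09. That made 5 of the 9 genes without overlap, against a background of 15% of all genes, 7.27% with DKO the higher and 7.74% with DKO the lower. In limma 0 of 9 passed, in edgeR 0 and in DESeq2 1, against 2% of all genes called in limma, and at an unadjusted p under 0.05, 2 of 9 passed, against 2182 genes. All 11 erythroid markers had lower values in DKO than in CDK19KO, with a median of -1.39 and none called. Once the erythroid level was a covariate, the difference was 0.27 for Cebpd, 0.18 for Spi1 and -0.05 for Cebpe. Without CDK8KO 1 and VAV 3, libraries of neither group, limma called Cebpd at an adjusted p of 0.00941 and Spi1 at 0.0484, in a fit that called 880 genes or 6.3%.

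Whether the change with Cdk19 loss depended on the floxed Cdk8 alleles and the transgene was tested as an interaction (the difference of DKO from CDK8KO, minus that of CDK19KO from WT). No gene of the 9 passed in limma, edgeR or DESeq2, where limma called 0.15% of all genes. At an unadjusted p under 0.05, 1 of 9 passed, Cebpd at 0.47 ± 0.21 (limma adjusted p = 0.560), against 1208 genes. Gfi1 had the next largest value, 0.45 ± 0.33. Over the 5 genotypes together, the moderated F test gave limma adjusted p of 0.138 for Cebpd, 0.235 for Spi1, 0.268 for Cebpe and 0.271 for Gfi1, and at least 0.525 for the others. Those 4 genes had an unadjusted p under 0.05, against 2438 or 17.4% of all genes, and none of the 9 was called, against 2.13% of all genes.

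**Figure D2:**
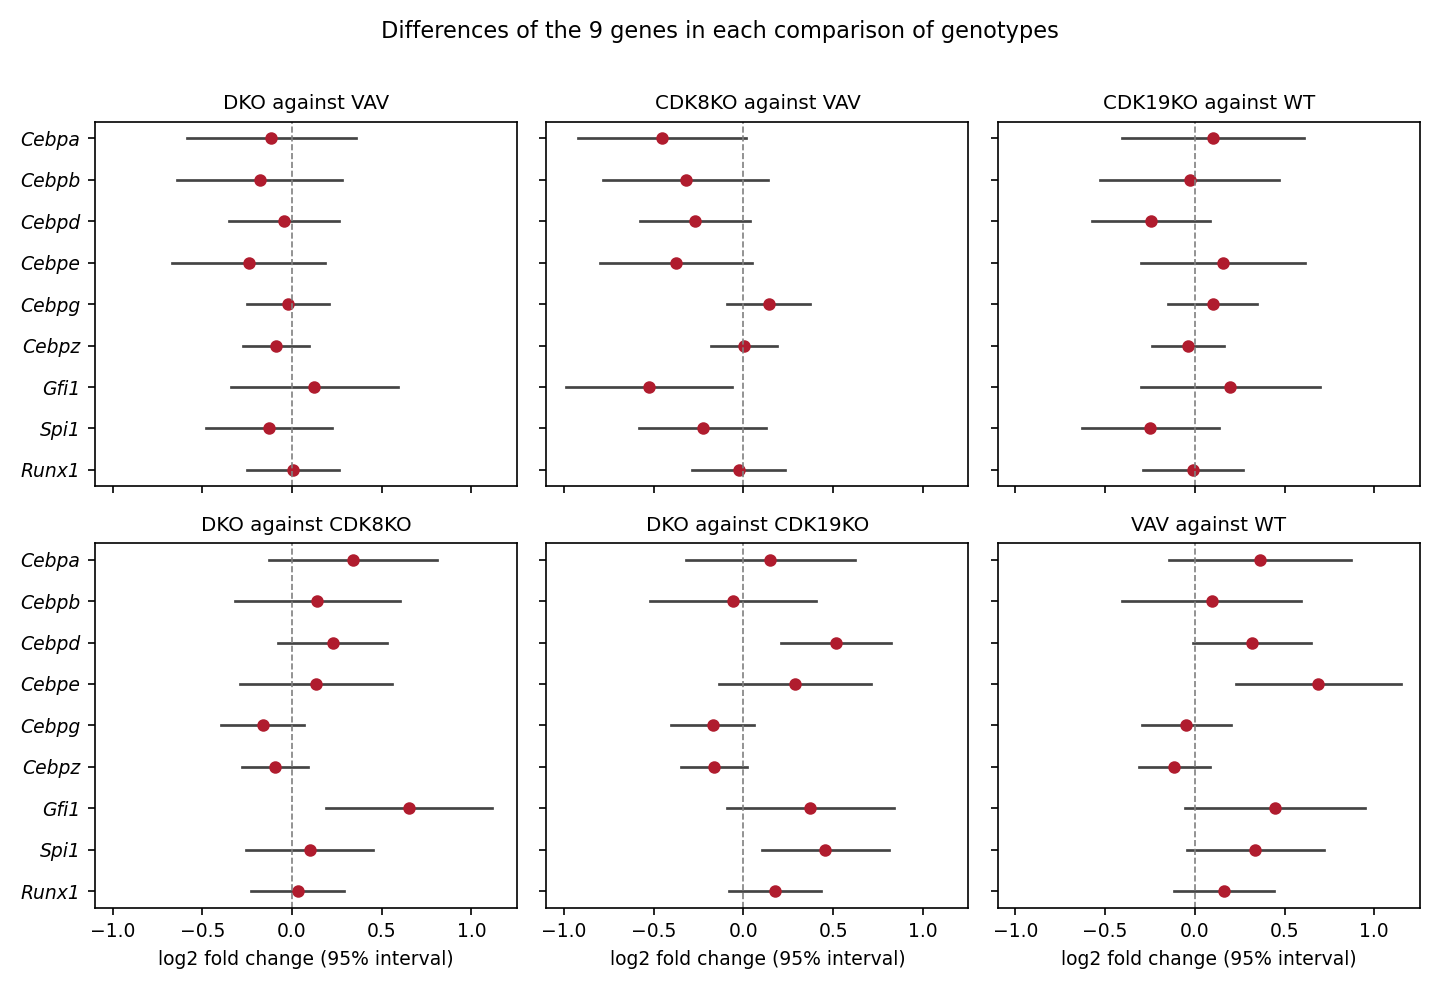
Log2 fold change of each of the 9 genes (horizontal axis, log2 scale) in 6 comparisons of genotypes. Points are limma estimates and bars are unadjusted 95% intervals. In DKO against VAV all 9 intervals cross 0. Intervals lie clear of 0 for Gfi1 in the comparisons of CDK8KO with VAV and of DKO with CDK8KO, for Cebpd and Spi1 in DKO against CDK19KO, and for Cebpe in VAV against WT.

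The control groups were set against each other as VAV against WT, and none of the 9 genes passed. Cebpe had 1632, 2579, 1301 and 2291 normalized counts in VAV, against 1258, 1328 and 951 in WT. VAV 1, VAV 2 and VAV 4 lay above all WT libraries and VAV 3 lay among them. The difference was 0.69 ± 0.22 (interval 0.23 to 1.15), with a limma adjusted p of 0.176. Gfi1 differed by 0.45 ± 0.24, Cebpa by 0.37 ± 0.24, Spi1 by 0.34 ± 0.18 and Cebpd by 0.32 ± 0.16, all with higher values in VAV. Runx1 (0.16 ± 0.13), Cebpb (0.09 ± 0.24), Cebpg (-0.05 ± 0.12) and Cebpz (-0.11 ± 0.09) differed less.

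In this comparison limma, edgeR and DESeq2 each called 0 of the 9 genes, and limma called 0.093% of all genes. At an unadjusted p under 0.05, 1 of 9 passed, against 2068 genes. None of the 9 had groups that did not overlap, against 12.4% of all genes. Without VAV 3 and CDK8KO 1, limma called Cebpe (0.87, adjusted p = 0.0143) and Cebpd (0.45, adjusted p = 0.0373), in a fit that called 1060 genes or 7.58%. With library weights estimated from the data it called Cebpe at 0.83 (adjusted p = 0.0245), in a fit that called 640 genes or 4.58%. All 11 erythroid markers had lower values in VAV than in WT with a median of -0.53 and none called, and with their level as a covariate the Cebpe difference was 0.53. The part of erythroid RNA in these differences was not tested further.

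Within genotypes the genes differed in how much they varied. The SD of log2 levels within genotypes was 0.342 for Cebpa, 0.342 for Cebpb, 0.337 for Gfi1 and 0.310 for Cebpe, above the median of 0.283 over all genes tested. It was 0.254 for Spi1, 0.212 for Cebpd, 0.170 for Runx1 and 0.142 for Cebpg. Cebpz had the smallest, 0.0908, which is percentile 1.4 among the 500 genes nearest to it in mean level. The genotype with the highest mean log2 level was VAV for Cebpa, Cebpb, Cebpd, Cebpe and Spi1, DKO for Gfi1 and Runx1, CDK19KO for Cebpg and WT for Cebpz. The lowest was CDK8KO for Cebpa, Cebpb and Gfi1, CDK19KO for Cebpd, Spi1 and Runx1, WT for Cebpe and DKO for Cebpg and Cebpz.

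Several of the genes varied together over the 19 libraries. The following correlations of log2 levels are descriptions over libraries that share size factors and differ in cell content. Cebpd and Spi1 had a Pearson r of 0.872 (0.768 within genotypes), and Cebpa and Cebpe had 0.832 (0.891 within genotypes). Cebpd with Cebpe had 0.760, Cebpe with Spi1 had 0.759, Cebpa with Gfi1 had 0.720 and Cebpa with Cebpb had 0.675. Cebpg, Cebpz and Runx1 stood outside this group. To the other 8 genes, r lay between -0.494 and 0.101 for Cebpg and between -0.513 and -0.013 for Cebpz. For Runx1 it lay between -0.513 and 0.304, and the value of -0.513 was that of Cebpz with Runx1. Cebpg did not follow Cebpa although the genes are neighbours on chromosome 7.

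Cebpa, Cebpb, Cebpd, Cebpe, Gfi1 and Spi1 ran opposite to erythroid RNA. Against the mean log2 level of the erythroid markers, r was -0.801 for Gfi1, -0.794 for Cebpd, -0.782 for Cebpa, -0.711 for Spi1, -0.704 for Cebpe and -0.633 for Cebpb. It was -0.375 for Runx1, 0.313 for Cebpz and 0.355 for Cebpg. The primary granule list holds 9 genes, and the products of some of them fill the first granules made in promyelocytes. Against this list r was 0.807 for Gfi1, 0.789 for Cebpa, 0.782 for Cebpd and 0.748 for Cebpe, and 0.0578 for Runx1. For Spi1 it was 0.630 and for Cebpb 0.477. Against 12 secondary and tertiary granule genes, made later, r was 0.803 for Spi1, 0.742 for Cebpe and 0.692 for Cebpd. It was 0.576 for Cebpa, 0.486 for Cebpb, 0.311 for Gfi1 and 0.156 for Runx1. Within genotypes r with this later list was 0.841 for Spi1, 0.811 for Cebpa, 0.794 for Cebpe and 0.771 for Cebpd. It was 0.692 for Cebpb, 0.601 for Gfi1 and -0.106 for Runx1, so Cebpa followed the later list as closely as Cebpe there. The correlations were no less with monocyte and macrophage markers for some of the genes, at 0.853 for Cebpe, 0.817 for Spi1 and 0.815 for Cebpa, and 0.613 for Gfi1.

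**Figure D3:**
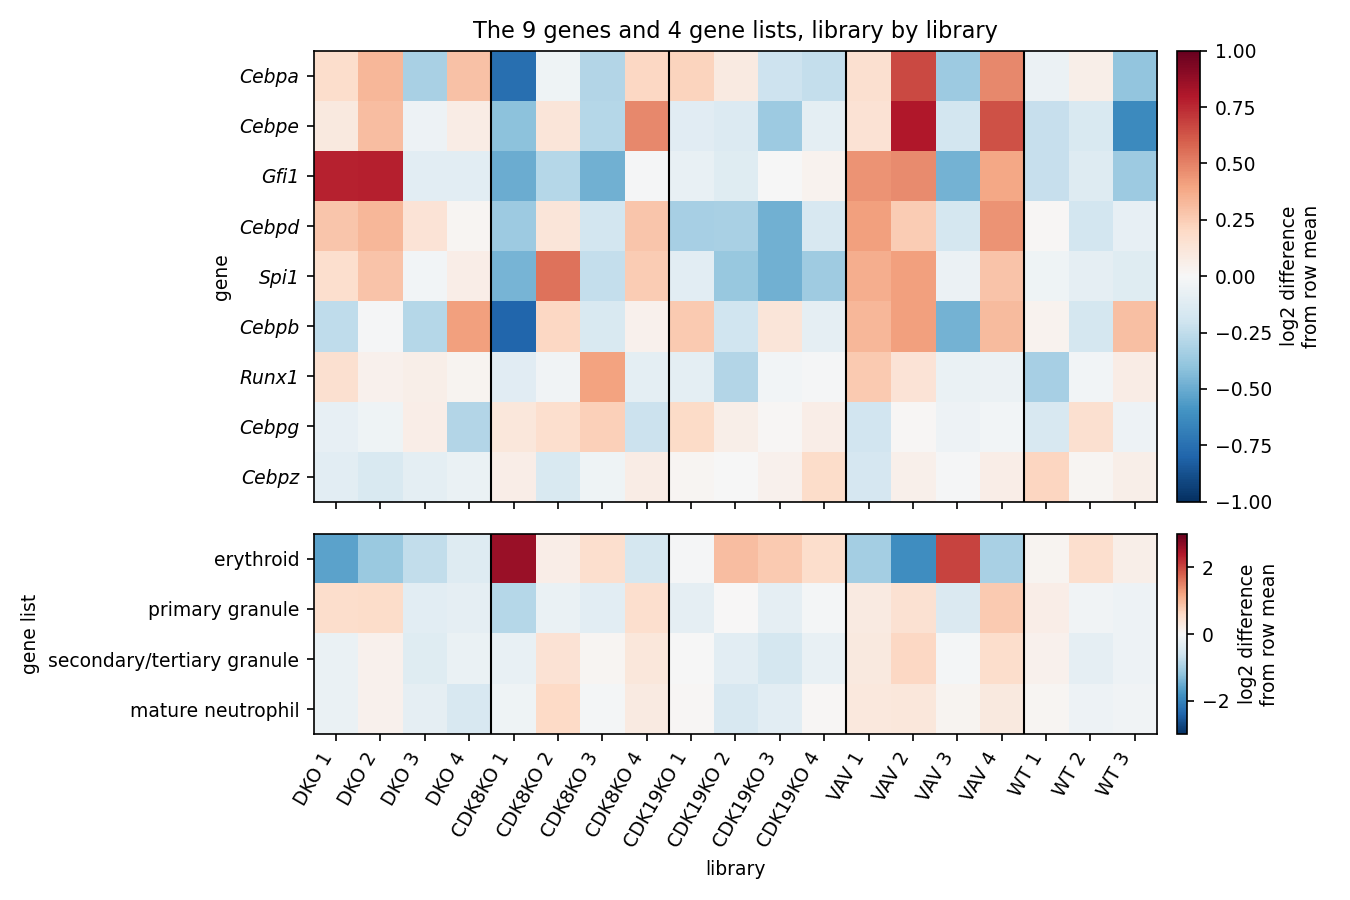
Log2 level of the 9 genes (upper panel) and mean log2 level of the erythroid markers and 3 granulocyte gene lists (lower panel) in each library, as the difference from the row's mean over 19 libraries, with a separate colour scale for each panel. Black lines part the genotypes. CDK8KO 1 and VAV 3 are high for erythroid RNA and low for Cebpa, Cebpe, Gfi1 and Cebpb, and the rows of Cebpg and Cebpz are pale.

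Outside the 9 genes, the genes with the most similar pattern were searched among the 11208 whose mean normalized count was 50 or more, by Pearson r over 19 libraries. Spi1 was most like Cmtm6 (0.956), Ugt1a7c (0.945) and Atxn10 (0.937). Cebpe was most like Ctdsp1 (0.952), Aldh2 (0.940) and Cdk2ap2 (0.939), and Cebpd most like Clec5a (0.938), Rflnb (0.931) and Hmgn2 (0.925). Clec5a encodes a receptor of myeloid cells, and Aldh2 a mitochondrial aldehyde dehydrogenase. For Gfi1 they were Cldn15 (0.902), Lta4h (0.881) and Mapkapk3 (0.878), and for Cebpa Bckdha (0.900), Mgrn1 (0.885) and Apba1 (0.878). Lta4h encodes the enzyme that makes leukotriene B4, a neutrophil attractant. Cebpz was most like Polr1c (0.841), Npm1 (0.821) and Rcl1 (0.803), genes of RNA polymerase I and III, the nucleolus and ribosomal RNA processing. Runx1 was most like Zeb2 (0.834), Pdss2 (0.830) and Lrch1 (0.803), Cebpb like Rcsd1 (0.831), Zyg11b (0.829) and Slc43a2 (0.803), and Cebpg like Mipol1 (0.781), Sdf2 (0.745) and Strn3 (0.717).

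Gene lists around the 9 factors were then read in DKO against VAV, where 0.694% of all genes were called lower and 0.83% higher. Because the lists were chosen with earlier results of these data known, their counts beside these shares are descriptions only. With the erythroid covariate 603 genes were called, 36.2% of them higher, against 54.5% without it. No list gene was called higher. Among 11 tested partners and adaptors of C/EBP proteins, 1 fell, Fos, which encodes a leucine zipper protein of the AP-1 complex. Fos had 299.6, 368, 513 and 585 normalized counts in DKO, against 3479.97, 1332, 936 and 1262 in VAV. Every DKO library lay below every VAV library, and VAV 1 was far above the rest. The Fos difference was -1.84 ± 0.36 (limma adjusted p = 0.0117). Set against WT the difference was -1.49 (limma adjusted p = 0.0520), and the fit of DKO and VAV libraries alone gave a limma adjusted p of 0.0571. The list's other members did not pass, 3 of the 11 had higher and 8 lower values, and the median was -0.29. Batf2, also listed, was below the filter and not tested.

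Among 6 cofactors and relatives of GFI1, 1 fell, Rcor1, which encodes CoREST1, the scaffold that joins GFI1 proteins to the histone demethylase LSD1. Rcor1 had 2247, 2169, 1805 and 1743 normalized counts in DKO, against 3025, 3302, 2637 and 2884 in VAV. The groups did not overlap, and the difference was -0.58 ± 0.12 (limma adjusted p = 0.0138). Rcor1 had 2157 to 2489 in WT, and set against WT the DKO difference was -0.22 with a limma adjusted p of 0.435. The call was also lost in the fit of DKO and VAV libraries alone (0.0736) and without DKO 3 (0.0618), DKO 4 (0.0598) or VAV 2 (0.0539), all limma adjusted p. Kdm1a, which encodes LSD1, differed by -0.09, and all 6 genes had lower values, with a median of -0.09.

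Of 12 monocyte and dendritic cell factors, 1 fell, Egr1, an immediate early gene that also acts in macrophages. Egr1 had 58.9, 46.7, 105 and 102 normalized counts in DKO, against 243, 230.4, 223 and 138 in VAV. The groups did not overlap, and the difference was -1.45 ± 0.30 (limma adjusted p = 0.0182). It lost the call in the fit of DKO and VAV libraries alone (0.0738) and without DKO 1 (0.0545), DKO 2 (0.0620), VAV 1 (0.0653) or VAV 2 (0.0600), all limma adjusted p. The list split evenly, with 6 higher and 6 lower values and a median of -0.00, and Irf8, which directs monocyte rather than granulocyte fate, differed by 0.11. None of 13 partners and relatives of RUNX1 and PU.1 passed (3 higher, 10 lower, median -0.21), among them Cbfb, the partner subunit of RUNX1, at -0.06. None of 7 erythroid, mast cell and megakaryocyte factors (median -0.44) and none of 7 progenitor factors (median -0.08) passed.

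**Figure D4:**
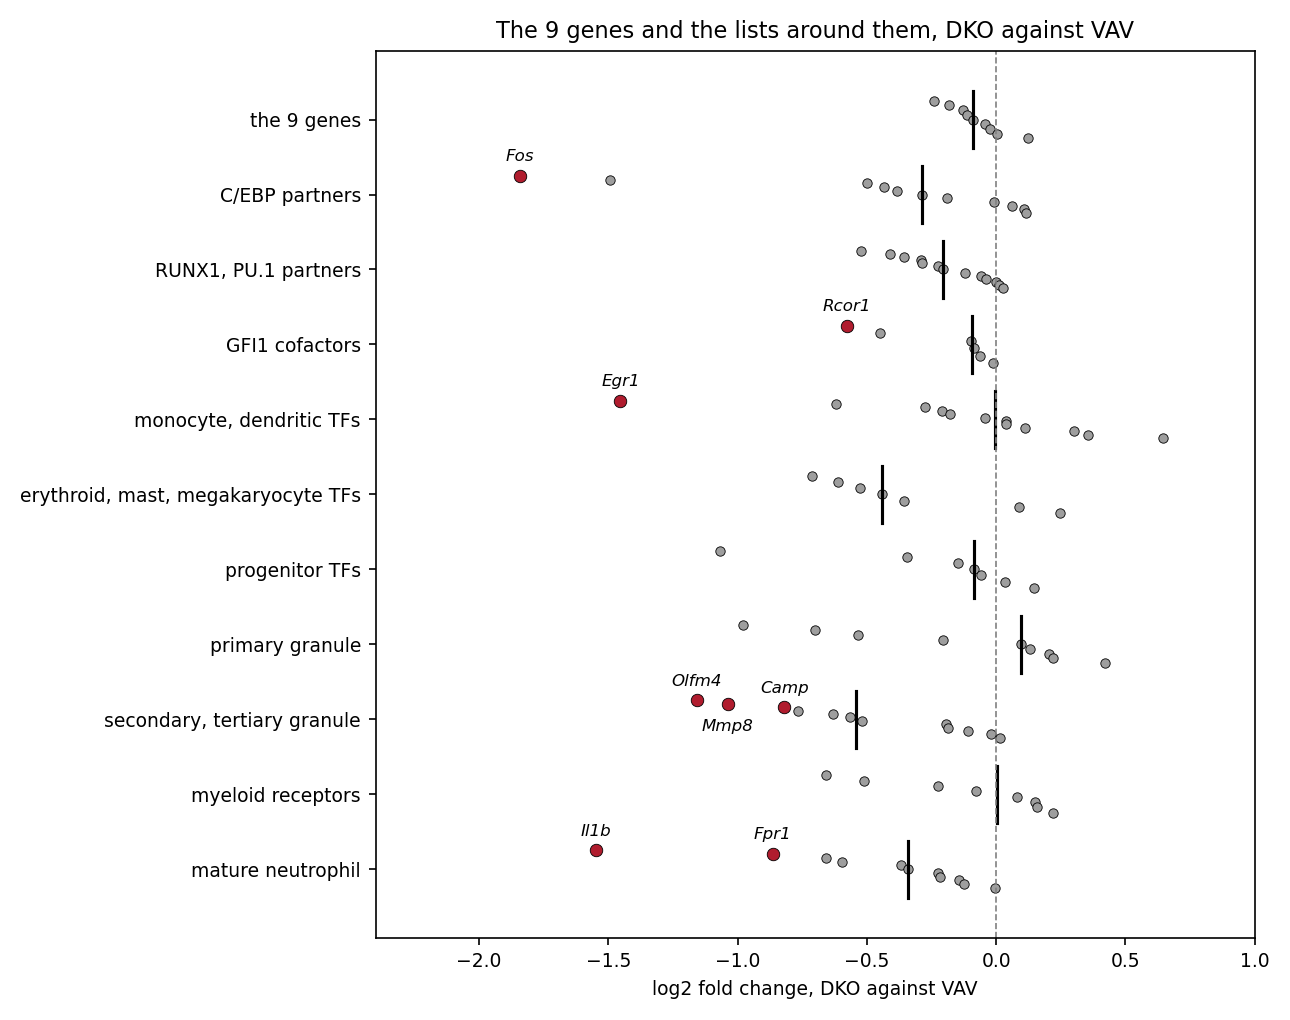
Log2 fold change in DKO against VAV (horizontal axis, log2 scale) of the 9 genes and of each tested gene in 10 lists. Each point is 1 gene, red and named where limma called it at an adjusted p under 0.05, and black bars are medians. The 9 genes lie between -0.24 and 0.12, and the called list genes, from Rcor1 at -0.58 to Fos at -1.84, all lie below 0.

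Granule genes include known targets of C/EBP factors. Among 12 secondary and tertiary granule genes, 3 fell in DKO against VAV and 9 did not pass. Of the 12 values 11 were lower, with a median of -0.54, against -0.01 over all genes. This depended on the control, as 10 of the 12 had higher values in VAV than in WT (median 0.58, none called). Mean counts in DKO were above those in WT for Ltf, Lcn2, Mmp9, Cd177, Itgb2l and Cybb. They were below those in WT for Camp, Ngp, Mmp8, Chil3, Olfm4 and Hp. Camp encodes the cathelicidin of secondary granules, and it is a known target of C/EBPε. Camp had 11236, 12218, 13252 and 13026 normalized counts in DKO, against 17425, 18806, 22639.7 and 30913 in VAV. The lowest library of the other genotypes had 20919 (CDK8KO), 17363 (CDK19KO) or 19312 (WT), so the 4 DKO libraries were the lowest of the 19. The Camp difference against VAV was -0.82 ± 0.16 (limma adjusted p = 0.0136), and of the 35 alternatives only the fit of DKO and VAV libraries alone lost the call (limma adjusted p = 0.0772).

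Mmp8, neutrophil collagenase, had 12677, 20383, 14277 and 15298 in DKO, against 29816, 43376, 23922 and 32401 in VAV. Every DKO library lay below every VAV library, and the difference was -1.04 ± 0.20 (limma adjusted p = 0.0116). It did not pass in the fit of DKO and VAV libraries alone (limma adjusted p = 0.0531) or against WT (-0.75, 0.0781). Olfm4, a glycoprotein of a subset of neutrophils, had 1549.6, 2151, 1409.5 and 911 in DKO, against 2949, 3435, 3183 and 3291 in VAV. These groups were also apart, with a difference of -1.16 ± 0.26 (limma adjusted p = 0.0247), but Olfm4 was also low in WT 2 (1505), and set against WT the DKO difference was -0.59 with a limma adjusted p of 0.323. The Olfm4 call was also lost without DKO 3 (limma adjusted p = 0.0732), DKO 4 (0.0997), VAV 1 (0.0544), VAV 2 (0.0757) or VAV 4 (0.0665). Of the members that did not pass, Ngp differed by -0.77, Ltf by -0.52 and Lcn2 by -0.11.

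Primary granule genes showed no called change. Of 9 genes, 5 had higher and 4 lower values in DKO against VAV with a median of 0.10. By mean count Mpo, Elane, Prtn3 and Prss57 were lower, and Ctsg, Ms4a3, Cst7, Nkg7 and Serpinb1a were higher. Mpo differed by -0.98 and Elane by -0.70 without passing. Among 8 myeloid receptor genes with known sites for these factors none passed (median 0.00), and Csf3r, the G-CSF receptor, differed by -0.66 ± 0.22. Of 11 mature neutrophil genes 2 fell, Fpr1, a formyl peptide receptor, and Il1b, an inflammatory cytokine. All 11 had lower values in DKO than in VAV, with a median of -0.34. In VAV against WT 10 of the 11 had higher values, with a median of 0.38 and none called. Mean counts in DKO were above those in WT for Cxcr2, S100a8, Mmp25, Fpr2 and Trem1. They were below those in WT for S100a9, Retnlg, Il1b, Fpr1, Clec4d and Csf3r. Fpr1 had 2048, 3334, 2332 and 1885 in DKO, against 4267, 5617, 3302 and 4168 in VAV, a difference of -0.86 ± 0.21 with slightly overlapping groups (limma adjusted p = 0.0446). Il1b had 441, 385, 291 and 159 in DKO, against 1547, 489, 1095 and 697 in VAV, a difference of -1.55 ± 0.38 with groups apart (limma adjusted p = 0.0474). Both calls lie close to the threshold and did not hold in most alternatives, with 15 of 35 for Fpr1 and 12 of 35 for Il1b. Leaving out DKO 4, for example, gave -0.76 for Fpr1 (limma adjusted p = 0.162) and -1.25 for Il1b (0.176), and leaving out VAV 1 gave 0.103 and 0.153. Over all alternatives the difference ran from -1.03 to -0.35 for Fpr1 and from -1.83 to -1.12 for Il1b.

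Markers of other cells also moved in this comparison. Of 8 eosinophil, basophil and mast cell markers, 7 rose in DKO against VAV, with a median of 1.35. The 5 megakaryocyte and platelet markers had lower values with a median of -1.07, and 10 of 11 erythroid markers had lower values with a median of -0.56, with none called in either list. Of 7 T and NK cell markers 1 rose and 1 fell, 6 had higher values and the median was 0.91. The 5 skeletal muscle markers had higher values in DKO with a median of 2.37 and none called. None of the monocyte, B cell or stroma markers was called. Their part in the granule gene differences was not tested.

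The granule genes were set beside Cebpe, a factor known to drive secondary granule genes; whether the DKO change of Cebpe differs from theirs was not tested. Cebpe in DKO lay between 1425 and 1831 normalized counts, within the 951 to 2579 of the other genotypes, while Camp lay below all of them. With the Cebpe level of each library as a covariate, a setting chosen after the data were seen, the DKO difference against VAV was -0.80 for Camp (limma adjusted p = 0.0208), -0.89 for Mmp8 (0.00964) and -1.10 for Olfm4 (0.0398). Fos (-1.74), Egr1 (-1.51), Rcor1 (-0.53) and Fpr1 (-0.71) were also called in that fit, and Il1b was not (-1.55, limma adjusted p = 0.0603).

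**Figure D5:**
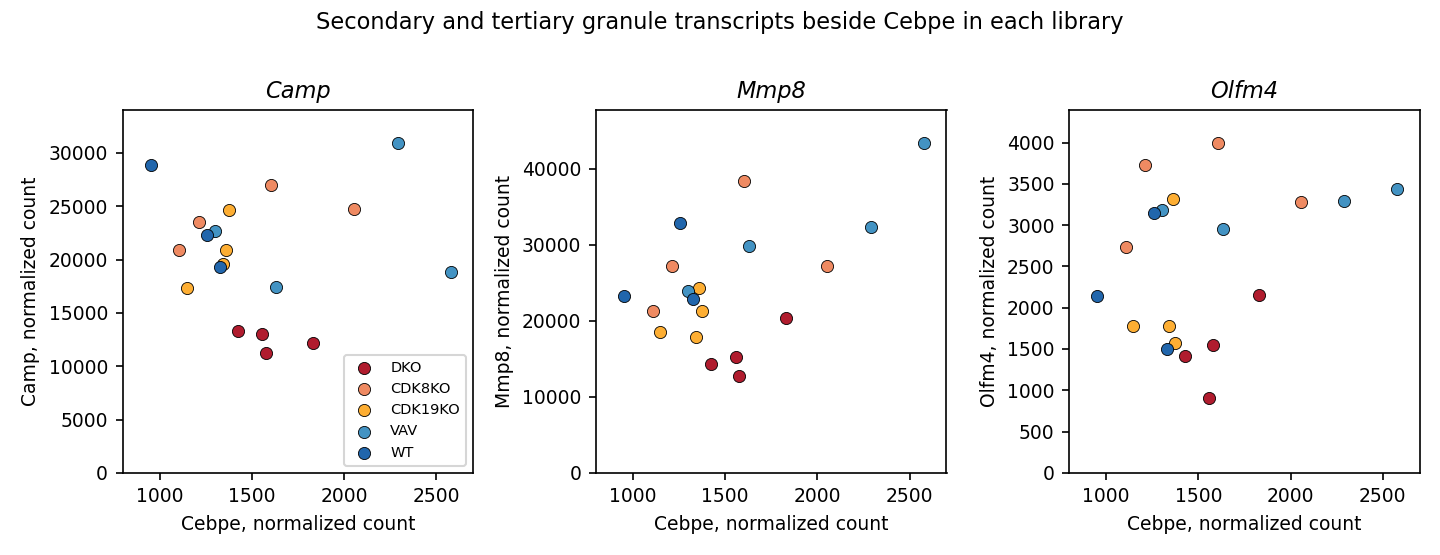
Normalized counts of Camp, Mmp8 and Olfm4 (vertical axes, from 0) against those of Cebpe (horizontal axes, not from 0) in the same library. Points are libraries, coloured by genotype. The DKO libraries have Cebpe between 1425 and 1831, inside the range of the others, and Camp at or below 13252, below every other library.

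The same lists were read in the other comparisons, where the genes named were chosen after their values were seen. In DKO against CDK8KO, where 0.651% of all genes were called lower, 3 of the 12 secondary and tertiary granule genes fell, Camp (-0.95, limma adjusted p = 0.00486), Olfm4 (-1.24, 0.0168) and Mmp8 (-0.86, 0.0342), and Egr1 fell by 1.55 on the log2 scale (limma adjusted p = 0.0129). Leaving out DKO 4 ended the calls of Mmp8 (0.0874) and Olfm4 (0.0658), and leaving out DKO 2 that of Egr1 (0.0501), all limma adjusted p. In the same comparison 8 of 8 eosinophil, basophil and mast cell markers rose (median 1.48), the T cell marker Cd8a rose by 1.68 and the NK cell marker Ncr1 fell by 1.41. In DKO against CDK19KO, where 1.34% of all genes were called higher and 0.658% lower, Camp fell (-0.72, limma adjusted p = 0.0276; 0.105 without CDK19KO 4), but 8 of the 12 granule genes had higher values, with a median of 0.18. Itgam, the CD11b integrin, had 21607, 24269.6, 16966 and 20532 normalized counts in DKO, against 15626, 11894, 11141 and 12457 in CDK19KO, and rose by 0.71 (limma adjusted p = 0.0390). Fpr2 rose by 0.73 (limma adjusted p = 0.0401), and Mecom, a progenitor factor at low level, fell by 2.27 (limma adjusted p = 0.0157; 0.0593 without CDK19KO 4). With the erythroid level as covariate, neither Itgam (0.43, limma adjusted p = 0.186) nor Fpr2 (0.47, 0.216) passed, and leaving out DKO 2 gave 0.132 for Itgam and 0.145 for Fpr2. There too 4 of 8 eosinophil, basophil and mast cell markers rose (median 1.32), as did Cd8a (1.67) and the monocyte marker Ly6c2 (1.39), while Ncr1 (-1.27) and the macrophage marker Mertk (-0.77) fell. The part of these cells in the list gene changes was not tested.

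No list gene was called in CDK8KO against VAV, CDK19KO against WT or VAV against WT. In CDK8KO against VAV all 9 primary granule genes had lower values (median -0.44), as did all 8 myeloid receptor genes (median -0.38). In VAV against WT all 9 primary granule genes had higher values (median 0.29), as did 10 of 12 secondary and tertiary granule genes (median 0.58) and 7 of 8 myeloid receptor genes (median 0.53). All of these comparisons but CDK19KO against WT share the VAV libraries.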

How the data were processed

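Per the labels, 19 libraries of polyadenylated marrow RNA (Kapa mRNA Hyper prep) were sequenced on a NovaSeq X as paired reads of 150 bases. Named in the submitters' processing notes are Salmon 1.4.0, DESeq2 without a version and mm10. The authors deposited normalized counts, a signal in which each library's gene counts are divided by a size factor. Whole reads were recovered in 100% of values within 0.001 read. Size factors recomputed from them differed from the deposited scaling by ratios of 0.999997 to 1. The annotation release and whether counting used strand are not given in the sources used here. IDs were matched to GENCODE vM21 on GRCm38 (34372 of 34432).

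Values were tested as log2(normalized count + 1) with limma 3.58.1 in R 4.3.3 (trend, all 5 genotypes in 1 fit) over the 13976 genes whose mean was 10 or more. P-values were adjusted by Benjamini-Hochberg within each comparison, and a gene was called at an adjusted p under 0.05. Recovered reads were tested with edgeR 4.0.16 and DESeq2 1.42.0 as alternatives. Values after ± are the SD for levels and the SE for fold changes. Reads cover counting error only: a count of 0 allows up to 3 reads, or 0.0909 to 0.202 per M, and no tested member was near it. No libraries of a genotype were duplicates (chi-square over degrees of freedom at least 15.5).

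The 9 members and 10 gene lists were chosen with earlier results of these data known. Named were all 9 members, up to 4 genes per list called in DKO against VAV with the smallest p, and the 3 genes most like each member. Motifs were counted in RefSeq promoters of GRCm38.p6. The limma step was also tested on simulated data. Alternatives were other pseudocounts, filters, tools, covariates, weights, controls, a replicate block and each library left out. Of the sequences read from the reference, 1 is not reported here.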

Additional observations from a re-analysis of the deposited data

Results flagged for a closer look

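In 36 groups of 4 libraries (9 genes in 4 genotypes), a library stood apart from the other 3 by more than Dixon's 95% critical value in 4, where chance gives about 1 in 20 groups. Gfi1 in VAV 3 had 435 normalized counts, against 792 to 841 in the other VAV libraries (gap over range 0.880). Cebpb in the same library had 1529, against 2637 to 2820 in the others (0.858). VAV 3 also held 2.96% of reads on erythroid markers, whose part in these values was not tested. Runx1 in CDK8KO 3 had 6561 normalized counts, against 4606 to 4852 in the other CDK8KO libraries (0.874). Cebpe in CDK19KO 3 had 1146, against 1342 to 1376 in the other CDK19KO libraries (0.849).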

How the results depend on the processing

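The 63 differences of the 9 genes were recomputed 2088 times. Of these values 2005 stayed within the SE of the reported difference and on the same side of the threshold, 68 moved further and 15 became called. The sign differed in 116, none of them a called value. Leaving out a library of an uncompared group cannot move a difference in this model, and fitting only the compared groups cannot either. Part of the 2005 was therefore fixed in advance, and the count does not measure stability. The numbers of called members became 1 with DESeq2 and 1 with the primary granule covariate in DKO against CDK19KO, 2 there with only the compared groups, with array weights and without the erythroid-rich CDK8KO 1 and VAV 3, and 0 to 1 with a library left out (Cebpd, without CDK8KO 1 or VAV 3, adjusted p 0.0424 and 0.0332). It became 1 with DESeq2 in DKO against CDK8KO. In VAV against WT it became 1 with array weights, 2 without the erythroid-rich pair and 0 to 1 with a library left out (Cebpe, without VAV 3, adjusted p 0.0382). In the test over 5 genotypes it became 3 with array weights, 3 without the erythroid-rich pair and 0 to 1 with a library left out (Cebpd, without VAV 3, adjusted p 0.0272). In the other comparisons it stayed 0.

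Called genes among all tested moved more. DKO against VAV had 213, and 504 with DESeq2, 99 with only the compared groups, 603 with the erythroid covariate, 385 without the erythroid-rich pair, 102 without the muscle-rich CDK19KO 4 and DKO 4, and 107 to 263 with a library left out. CDK8KO against VAV had 0, and 1 with DESeq2, 1 with only the compared groups, 12 with WT as the control and 0 to 1 with a library left out. CDK19KO against WT had 3, and 6 with no filter, 15 with DESeq2, 7 with array weights, 1 without the muscle-rich pair, 12 with VAV as the control, 1 with pooled controls and 1 to 4 with a library left out. DKO against CDK8KO had 238, and 711 with DESeq2, 31 with only the compared groups, 106 with array weights, 92 without the muscle-rich pair and 105 to 422 with a library left out. DKO against CDK19KO had 279, and 601 with DESeq2, 968 with only the compared groups, 1251 with array weights, 139 with the erythroid covariate, 880 without the erythroid-rich pair, 97 without the muscle-rich pair and 119 to 441 with a library left out. VAV against WT had 13, and 321 with DESeq2, 3 with only the compared groups, 640 with array weights, 46 with the erythroid and 26 with the primary granule covariate, 1060 without the erythroid-rich pair, 7 without the muscle-rich pair and 3 to 416 with a library left out. The interaction had 21, and 98 with DESeq2, 34 with array weights, 11 without the muscle-rich pair, 67 with the other control and 10 to 22 with a library left out. The test over 5 genotypes had 297, and 1191 with array weights, 489 with the erythroid covariate, 1466 without the erythroid-rich pair, 98 without the muscle-rich pair and 147 to 742 with a library left out, and was not run in DESeq2. The cause of these shifts was not tested. The share of calls that were higher was 54.5% in DKO against VAV, 36.2% with the erythroid covariate and 41.6% without the erythroid-rich pair. It was 61.8% in DKO against CDK8KO and 46.1% with DESeq2, 76.9% in VAV against WT and 64.3% with edgeR and 58.3% with voom, and 0% in CDK19KO against WT and 33.3% with DESeq2.

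Replicate numbers did not pair the libraries: over 36 pairs of same-numbered libraries the correlation of deviations lay between -0.274 and 0.306, 6 over 0.1. With the replicate block no member was called, and 196 genes were called in DKO against VAV, 1 in CDK19KO against WT, 204 in DKO against CDK8KO, 263 in DKO against CDK19KO, 0 in CDK8KO against VAV, 14 and 18 in the interaction and in VAV against WT, and 257 over 5 genotypes.

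Over 544 alternatives of 16 called differences of list genes no sign changed and 121 calls were lost. Here too, leaving out a library of an uncompared group cannot change a sign. In DKO against VAV, of 35 alternatives Camp was called in 34, Mmp8 in 33, Fos in 33, Egr1 in 30, Rcor1 in 28, Olfm4 in 27, Fpr1 in 15 and Il1b in 12.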
